A study of Mus musculus with 18 samples.

Results

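The genes described here are 7 members of reelin signalling and of the Cajal-Retzius cell: *Reln*, *Vldlr*, *Lrp8*, *Dab1*, *Pafah1b1*, *Ndnf* and *Calb2*. They were taken by symbol, and 7 of 7 had a row among the 12012 genes of the deposited table. The cultures were primary hippocampal cells of late embryonic mice, either *Fibcd1* wild type (WT) or *Fibcd1* knockout (KO), plated on coverslips coated with a purified mix of chondroitin sulphate proteoglycans (CSPGs), the sulphated matrix molecules of the brain that the FIBCD1 receptor binds. RNA was poly-A selected and read as 50-base single reads. Each library was a separate preparation of cells by the study's methods. The series labels 18 libraries, of which 8 are compared here: WT_CSPG replicates A to D and KO_CSPG replicates A to D, so that every library came from cells on CSPGs. The remaining WT_CSPG library and the 9 uncoated libraries were not analysed here.

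Reelin is a large secreted glycoprotein of the extracellular matrix. In the developing hippocampus it is made first by Cajal-Retzius cells, the early neurons that line the marginal zone and the hippocampal fissure, and later by GABAergic interneurons. It binds the lipoprotein receptors APOER2, encoded by *Lrp8*, and VLDLR, and their intracellular adaptor DAB1 is then phosphorylated by kinases of the SRC family. DAB1 recruits CRK proteins and phosphoinositide 3-kinase, is degraded by a CUL5 ligase, and can bring the VLDLR-bound complex together with LIS1, the dynein regulator encoded by *Pafah1b1*. Calretinin (*Calb2*), NDNF and the transcription factor p73 (*Trp73*) are used as markers of Cajal-Retzius cells, although calretinin and NDNF are also made by some interneurons.

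*Dab1* and *Reln* have their start sites covered by RefSeq promoter windows on GRCm38.p6, 250 bases before and 50 after each start, and these are shown because *Dab1* is the member that passed the test below and *Reln* is the ligand that the pathway turns on. Capitals mark GC boxes, GGGCGG or its reverse complement CCGCCC. The *Reln* window is chr5:22344656-22344955 on the minus strand, the upstream *Dab1* window is chr4:103619250-103619549 and the downstream *Dab1* window, inside the annotated gene, is chr4:104367288-104367587, both on the plus strand.
Reln: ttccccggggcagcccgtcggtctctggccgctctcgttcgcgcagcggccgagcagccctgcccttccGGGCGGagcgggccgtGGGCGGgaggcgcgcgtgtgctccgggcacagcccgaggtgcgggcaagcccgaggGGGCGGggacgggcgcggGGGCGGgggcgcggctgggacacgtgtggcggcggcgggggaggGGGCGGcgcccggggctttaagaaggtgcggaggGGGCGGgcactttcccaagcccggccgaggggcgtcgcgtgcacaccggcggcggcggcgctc
Dab1 upstream: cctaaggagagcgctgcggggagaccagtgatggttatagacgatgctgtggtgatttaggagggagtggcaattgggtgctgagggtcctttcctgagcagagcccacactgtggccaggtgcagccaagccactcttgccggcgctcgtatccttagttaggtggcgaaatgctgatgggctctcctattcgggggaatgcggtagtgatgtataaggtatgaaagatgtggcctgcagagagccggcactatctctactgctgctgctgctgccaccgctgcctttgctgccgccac
Dab1 downstream: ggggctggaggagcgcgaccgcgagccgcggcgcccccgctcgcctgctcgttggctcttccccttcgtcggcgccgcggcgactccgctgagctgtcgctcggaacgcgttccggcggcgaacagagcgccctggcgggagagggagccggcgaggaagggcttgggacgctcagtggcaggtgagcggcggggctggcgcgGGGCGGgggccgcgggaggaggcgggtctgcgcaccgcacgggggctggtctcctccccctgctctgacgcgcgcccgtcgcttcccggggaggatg
The *Reln* window held 6 GC boxes, 47 CpG dinucleotides and 80.7% G or C, a content higher than in 99.2% of the 32851 mouse promoter windows of the same length. The upstream *Dab1* window held 0 GC boxes, 12 CpG and 57.3% G or C, against 1 GC box, 46 CpG and 77.3% G or C in the downstream one. Of all windows, 35.7% held a GC box on either strand, and the median window had 7 CpG and 52.7% G or C. An E-box (CANNTG) was found 1 time in the *Reln* window, 2 times in the upstream and 1 time in the downstream *Dab1* window, and 72.3% of all windows held one. The letters of a cyclic AMP response element (TGACGTCA, in 1.79% of windows), an AP-1 site (TGANTCA, 7.81%) and a TATA box (TATAAA, 13.6%) were in none of the 3 windows on either strand. RefSeq windows were matched for 5 of the 7 members, with *Ndnf* and *Calb2* the others.

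The deposited values are normalized counts, that is reads per gene divided by a factor that evens out the libraries, and the libraries held between 10099564 and 11647202 reads over the table. *Fibcd1*, the targeted gene, had 54.3, 70.4, 60.1 and 182 normalized counts in WT_CSPG A to D and 0.970, 0.932, 7.16 and 4.74 in KO_CSPG A to D, so each library went with its genotype label. WT_CSPG D stood apart from the other WT_CSPG libraries in *Fibcd1*, and also in *Zic2* as given with the Cajal-Retzius markers. In the interneuron marker *Nr2f2*, picked with its value in view, it had 1395 normalized counts against 808 to 830 in the other WT_CSPG libraries. The sum of the Y-linked genes *Ddx3y*, *Eif2s3y*, *Kdm5d* and *Uty* was 1557 to 1935 in WT_CSPG and 878 to 1092 in KO_CSPG, and 91.2% of its variance lay between the genotypes, so genotype and the sex of the embryos cannot be told apart in any comparison below. The labels name the cells neurons: the neuronal genes *Map2* and *Tubb3* had means of 16097 and 15668 normalized counts in WT_CSPG, while *Gfap*, the intermediate filament of astrocytes, had 19961, so glial transcripts were present as well. In such bulk RNA fewer cells of a type and less RNA per cell cannot be told apart.

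The members were first compared by level. Per kilobase of the gene length deposited with the table, and as mean ± SD over the 8 libraries, *Pafah1b1* stood at 912 ± 13.6 normalized counts per kb, *Calb2* at 582 ± 46.9, *Dab1* at 342 ± 17.5 and *Lrp8* at 318 ± 16.7. *Vldlr* followed at 141 ± 7.41, *Reln* at 80.3 ± 9.92 and *Ndnf* at 22.7 ± 9.47 normalized counts per kb. The order was therefore LIS1, calretinin, the adaptor, the 2 receptors, the ligand and NDNF. The libraries of *Dab1* (320 to 366 per kb) and *Lrp8* (297 to 351 per kb) overlapped, and no other neighbours in this order did. *Pafah1b1* was above 96.6% of the genes of the table on this scale, *Reln* above 44.2% and *Ndnf* above 12.4%. Counts per gene do not show which transcripts of the 23738-base *Reln* model were present.

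The 7 members also differed in their spread. The SD of log2(value + 1) among libraries of 1 group was 0.152 for *Reln*, and 99.3% of the 2679 genes within 2-fold of its mean had a lower one. For *Ndnf* the SD was 0.486 and 99.9% of 4270 genes of like level had a lower one, and for *Calb2* it was 0.107 with 93.9% of 4128 genes lower. The ligand and both Cajal-Retzius markers were thus among the more variable genes of their level. By contrast, the SD was 0.0325 for *Dab1*, with 17.7% of genes of like level lower, and 0.0219 for *Pafah1b1*, with 4.69% lower. *Reln* differed 1.44-fold between its lowest and highest library and *Ndnf* 3.61-fold, against 1.05-fold for *Pafah1b1*. Counting error was small beside this: the coefficient of variation of *Reln* was 10.1% in WT_CSPG and 11.1% in KO_CSPG, where reads alone would give 2.31%.

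**Figure D1:**
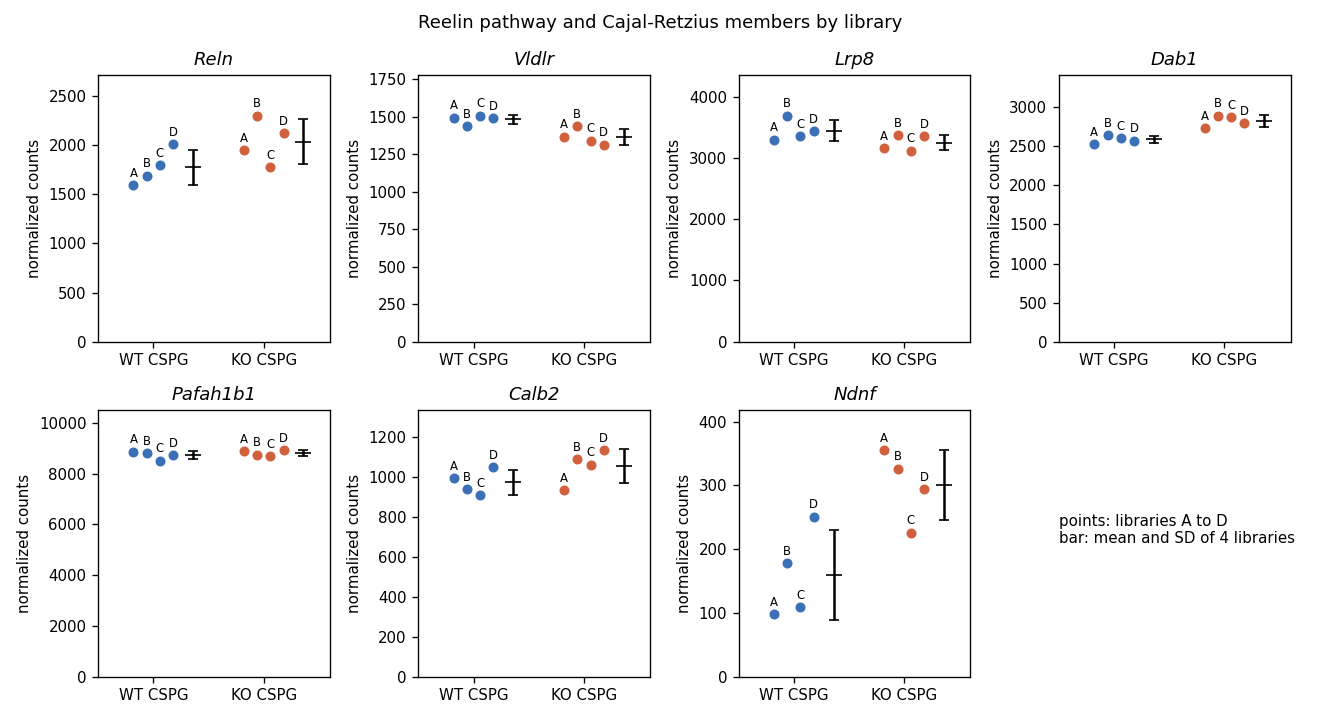
Normalized counts of the 7 members (y axis from 0) in WT_CSPG (blue) and KO_CSPG (orange) libraries A to D, with the mean and SD of 4 libraries in black. *Dab1* is the member whose 2 groups do not overlap, while *Reln* and *Ndnf* spread widely within a group.

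The study proposes that its own KO against WT comparison, without CSPGs, may reflect differing numbers of glia. It therefore went on with contrasts of CSPG against no CSPG within a genotype. The comparison of KO_CSPG with WT_CSPG made here shows which transcripts differ between the genotypes on CSPGs, and does not isolate those that depend on FIBCD1. It was fitted with limma over all 12012 genes on log2(value + 1), and a gene was called at a Benjamini-Hochberg adjusted p below 0.05. Among the 11553 genes counted, 2.83% were called, 1.06% as higher and 1.77% as lower in KO_CSPG. Of the 7 members, 1 was called, *Dab1*, which was higher in KO_CSPG, and 0 were called lower. An unadjusted limma p below 0.05 was found for 4 of the 7, and for 1872 of the 11553 genes counted, or 16.2%. The median log2 fold change was 0.11 over the members and -0.00023 over all genes counted, with 5 members above 0 and 2 below, the latter being both receptors.

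*Reln* lies at chr5:21884454-22344702 on the minus strand of GRCm38 (ENSMUSG00000042453), with 15 annotated transcripts of up to 65 exons. It had 1593, 1692, 1796 and 2013 normalized counts in WT_CSPG A to D and 1947, 2302, 1778 and 2121 in KO_CSPG A to D. KO_CSPG B was the highest and WT_CSPG A the lowest, and the groups overlapped, since KO_CSPG C lay below WT_CSPG C and D. The means were 1773 ± 179.7 and 2037 ± 226 (SD, n = 4), a log2 fold change of 0.20 with a standard error (SE) of 0.102 and a 95% interval from -0.05 to 0.44 (limma adjusted p = 0.415). At this spread a difference in *Reln* was not established. The gene shares 246 exonic bases with the antisense gene *Gm10475*, which has no row in the table, and whether reads were counted by strand is not given in the sources used here.

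Both reelin receptors had lower means in KO_CSPG without passing the test. *Vldlr* (chr19:27216484-27254231, plus strand, ENSMUSG00000024924) had 1493, 1437.1, 1507 and 1489 normalized counts in WT_CSPG A to D and 1365, 1437.8, 1339 and 1314 in KO_CSPG A to D. Only KO_CSPG B reached the WT_CSPG range, exceeding WT_CSPG B by less than 1 normalized count. The log2 fold change of *Vldlr* was -0.12 (SE 0.0373, interval -0.20 to -0.04, limma adjusted p = 0.0853), and without KO_CSPG B it was -0.15 with an adjusted p of 0.0418. Over all omissions of 1 library the limma adjusted p of *Vldlr* ran from 0.0418 to 0.217. *Lrp8* (chr4:107802261-107876840, plus strand, ENSMUSG00000028613) had 3298, 3692, 3352 and 3432 normalized counts in WT_CSPG and 3160.1, 3368, 3120.1 and 3352 in KO_CSPG, libraries A to D. Its groups overlapped, with the highest value in WT_CSPG B, and the log2 fold change was -0.08 (SE 0.0360, interval -0.16 to -0.01, limma adjusted p = 0.244).

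APOER2 and VLDLR have distinct roles in reelin signalling, so the ratio of their transcripts was taken within each library, where the scaling between libraries drops out. The *Lrp8* to *Vldlr* ratio of normalized counts was 2.21, 2.57, 2.22 and 2.30 in WT_CSPG A to D and 2.31, 2.34, 2.33 and 2.55 in KO_CSPG A to D. The 2 sets overlapped, with one high library in each. The log2 ratio differed by 0.04 (KO_CSPG minus WT_CSPG; two-sided exact permutation test, p = 0.486, where 70 permutations allow no p below 0.0286).

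*Dab1*, the adaptor, lies at chr4:103619359-104744844 on the plus strand (ENSMUSG00000028519, 8 transcripts). It had 2529, 2641, 2604 and 2569 normalized counts in WT_CSPG A to D and 2731, 2892, 2868 and 2797 in KO_CSPG A to D. All KO_CSPG libraries were above all WT_CSPG libraries, a separation of groups seen in 9.24% of the genes counted and in 1 of the 7 members. The mean rose from 2586 ± 48.2 to 2822 ± 72.7 (SD, n = 4), a fold of 1.09 and a log2 fold change of 0.13 (SE 0.0312, interval 0.06 to 0.19, limma adjusted p = 0.0259). The change was small and close to the threshold: the adjusted p was 0.0893 without WT_CSPG A, 0.0549 without WT_CSPG C, 0.0696 without KO_CSPG B and 0.0862 without KO_CSPG C, with the fold change staying between 0.11 and 0.14 on the log2 scale. With the Y-linked sum as a covariate it was -0.02 (SE 0.101, adjusted p = 0.982).

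*Pafah1b1* (chr11:74673949-74724670, minus strand, ENSMUSG00000020745) encodes LIS1 and was the steadiest member. It had 8863, 8804, 8516 and 8727 normalized counts in WT_CSPG A to D and 8893, 8746, 8693 and 8918 in KO_CSPG A to D. The ranges were interleaved, and the log2 fold change was 0.01 (SE 0.0253). Its 95% interval of -0.04 to 0.07 was the narrowest of the 7 (limma adjusted p = 0.852).

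**Figure D2:**
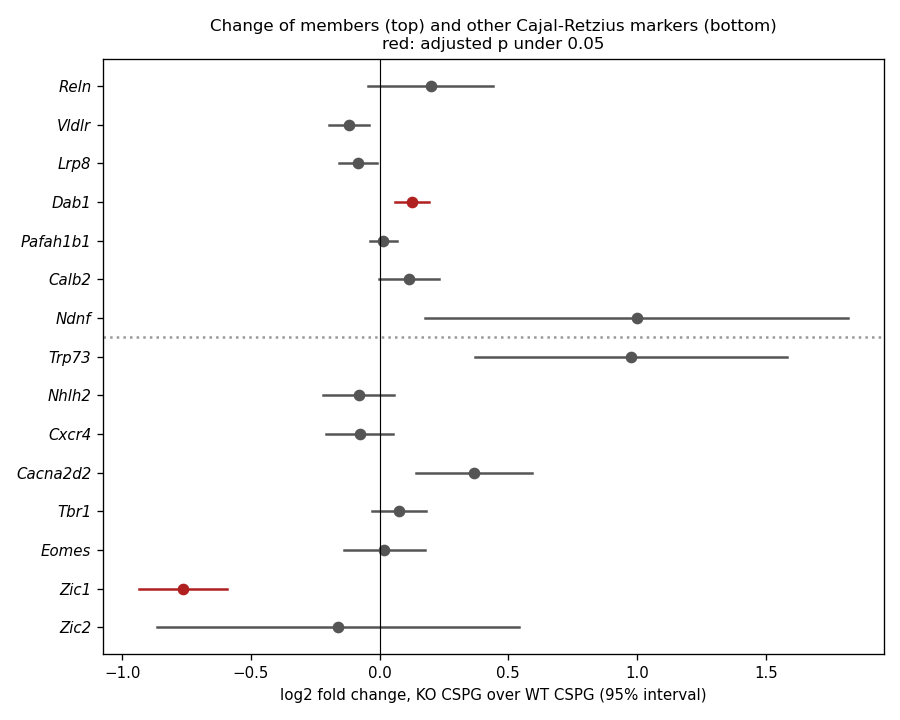
Log2 fold change of KO_CSPG over WT_CSPG with its 95% interval (x axis) for the 7 members, above the dotted line, and for the other Cajal-Retzius markers, below it. Red marks an adjusted p below 0.05: *Dab1* at 0.13 and *Zic1* at -0.77, while the wide intervals of *Ndnf* and *Trp73* lie above 0 with adjusted p of 0.223 and 0.102.

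*Ndnf* encodes a secreted neurotrophic glycoprotein and lies at chr6:65671590-65712326 on the plus strand (ENSMUSG00000049001). It had 98.2, 178, 109 and 251 normalized counts in WT_CSPG A to D and 355, 326, 226 and 294 in KO_CSPG A to D. WT_CSPG A and C were lowest, and the groups overlapped through WT_CSPG D, which lay above KO_CSPG C. The means were 159 ± 70.7 and 300.3 ± 55.5 (SD, n = 4), and the difference did not pass the test although it was the largest of the 7 (log2 fold change 0.999, SE 0.339, interval 0.18 to 1.82, limma adjusted p = 0.223). It stood on 94 to 366 reads per library. Without WT_CSPG D the log2 fold change was 1.25 with an adjusted p of 0.0648, and without limma's robust prior, which lets variable genes keep a larger variance, the adjusted p was 0.00894. Over all omissions of 1 library the log2 fold change ran from 0.80 to 1.25, and the limma adjusted p from 0.0648 to 0.413.

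*Calb2* (chr8:110137502-110168210, minus strand, ENSMUSG00000003657) encodes the calcium-binding protein calretinin. It had 996, 939, 911 and 1049 normalized counts in WT_CSPG A to D and 934, 1090.0, 1062 and 1134 in KO_CSPG A to D. The groups overlapped, KO_CSPG A lying below every WT_CSPG library but C. The log2 fold change was 0.11 (SE 0.0559, interval -0.0031 to 0.23, limma adjusted p = 0.327).

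The wider list of Cajal-Retzius markers held 18 genes, of which 11 had a row. *Lhx1*, *Lhx5*, *Ebf1*, *Ebf2*, *Ebf3*, *Nhlh1* and *Barhl2*, transcription factors that are used to define the lineage, had none, in a table whose lowest mean is 40.7 normalized counts. The name Cajal-Retzius therefore rests here on *Reln*, *Calb2*, *Ndnf*, *Trp73* and markers shared with other cells, and it is not shown that the reads came from such cells. Of the 11, 0 were called higher and 1 lower, with a median log2 fold change of 0.08 and 4 at an unadjusted limma p below 0.05, beside 16.2% of all genes counted. Without WT_CSPG D 3 were called (2 higher), without KO_CSPG C 2 (1 higher), and without limma's robust prior 3 (2 higher). Their summed normalized counts were 5010 to 5951 in WT_CSPG and 5319 to 6053 in KO_CSPG.

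*Zic1*, a zinc-finger factor of the septum, cortical hem and meninges, was the list's called gene. It had 319.7, 259.9, 250.2 and 290.4 normalized counts in WT_CSPG A to D and 168, 177, 152 and 158 in KO_CSPG A to D. The groups did not overlap, and *Zic1* fell by 0.77 on the log2 scale (SE 0.0833, limma adjusted p = 1.88e-06). Its paralogue *Zic2* had 165, 182, 173 and 383 normalized counts in WT_CSPG and 208, 204, 167 and 179 in KO_CSPG. There WT_CSPG D was far above the other libraries. The log2 fold change was -0.16 (SE 0.291, adjusted p = 0.858), and 0.12 without that library.

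*Trp73* and the calcium channel subunit gene *Cacna2d2* are described because of their values, which were seen first. *Trp73* had 32.4, 49.8, 42.7 and 81.5 normalized counts in WT_CSPG A to D and 113, 102, 68.5 and 111 in KO_CSPG A to D, again with WT_CSPG D above KO_CSPG C. Its log2 fold change was 0.98 (SE 0.269, limma adjusted p = 0.102), and 1.22 with an adjusted p of 0.000113 when WT_CSPG D was left out. Over all omissions of 1 library it ran from 0.78 to 1.22, and the limma adjusted p from 0.000113 to 0.248. *Cacna2d2* had 127, 161, 149 and 205 normalized counts in WT_CSPG and 206, 204, 215 and 194 in KO_CSPG. Its log2 fold change was 0.37 (SE 0.107, limma adjusted p = 0.0723), or 0.49 without WT_CSPG D (adjusted p = 0.00161). Over the same omissions it ran from 0.26 to 0.49, and the limma adjusted p from 0.00161 to 0.207. Neither gene passed in the comparison of all 8 libraries as fitted here, although without the robust prior *Trp73* did (adjusted p = 0.0130). The other markers showed smaller differences, with log2 fold changes of 0.08 for *Tbr1*, 0.02 for *Eomes*, -0.08 for *Nhlh2* and -0.08 for *Cxcr4*.

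**Figure D3:**
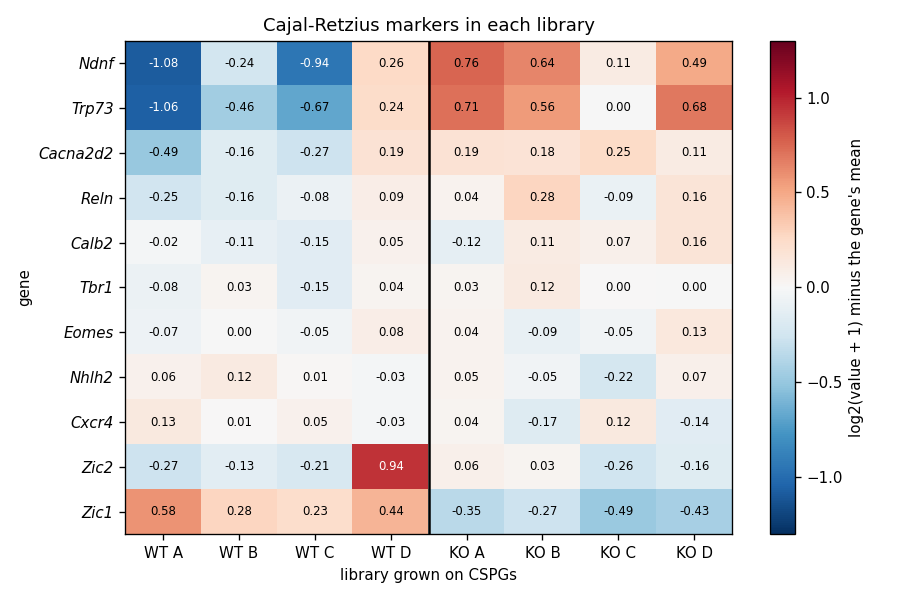
Log2(value + 1) of 11 Cajal-Retzius markers (rows) in each library (columns), minus the gene's mean over the 8 libraries. *Ndnf* and *Trp73* are lowest in WT_CSPG A and highest in KO_CSPG A, at -1.08 and -1.06 in WT_CSPG A and 0.76 and 0.71 in KO_CSPG A, *Zic2* is high in WT_CSPG D at 0.94, and *Zic1* is below its mean in every KO_CSPG library.

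The library-to-library pattern of the members was compared with other genes by the Pearson correlation of log2(value + 1) over the 8 libraries. These values share library, scaling and genotype, and are given as descriptions. For *Reln* the 5 closest genes were *Iqsec2* (r = 0.98), *Igsf1* (0.96), *Mapkap1* (0.96), *Cntnap5a* (0.94) and *Pcsk2* (0.93). With the group means removed, r with *Reln* was 0.97 for *Iqsec2* and 0.99 for *Cntnap5a*. For *Dab1* the closest were *Pomk* (0.96), *Vwa9* (0.96), *Vopp1* (0.95), *Inpp5j* (0.95) and *Yaf2* (0.95), with r of 0.70 to 0.75 once the group means were removed. *Trp73* was the third closest gene to *Ndnf* (r = 0.97, and 0.94 for deviations from the group means), a pair named after its values were seen. *Pdgfra*, a gene of oligodendrocyte precursors and fibroblasts, was about as close to *Ndnf* (0.97, and 0.93 for deviations). *Reln* had r of 0.86 with *Trp73*, 0.79 with *Ndnf*, 0.59 with *Calb2* and -0.88 with *Cxcr4*, the chemokine receptor of migrating Cajal-Retzius cells and interneurons. With the list's other markers r was 0.71 (*Cacna2d2*), 0.62 (*Tbr1*), 0.40 (*Zic2*), 0.30 (*Eomes*), -0.14 (*Nhlh2*) and -0.54 (*Zic1*), and with *Pdgfra* it was 0.72. The interneuron markers *Gad1* and *Prox1* had r of 0.54 and 0.46 with *Reln*. A higher r with *Reln* than that of *Ndnf* was found for 175 genes, and than that of *Calb2* for 1004. Among the members, *Reln* and its receptors had r of -0.06 (*Lrp8*) and -0.31 (*Vldlr*), but 0.46 and 0.45 for deviations from the group means.

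The genes around the members were then counted by role, each against the 2.83% called over all genes. The first list held 18 genes of proteases that cut reelin, shared receptors, alternative ligands and proteins that handle the receptors (*Lrpap1*, *Mylip* and *Snx17*). Of these, 16 had a row and 0 were called, with a median log2 fold change of -0.02. An unadjusted limma p below 0.05 was found for 2 of the 16, beside 16.2% of all genes counted. The most abundant were *Apoe*, the apolipoprotein that competes for the same receptors, at 7254 ± 809 normalized counts in WT_CSPG and 8083 ± 444 in KO_CSPG (log2 fold change 0.16, SE 0.0888, limma adjusted p = 0.452), and *Lrp1*, at 2944 ± 222 and 2798 ± 130.2 (log2 fold change -0.07, adjusted p = 0.505). *Adamts3*, the main protease that inactivates reelin in the brain, had a log2 fold change of -0.05 (adjusted p = 0.843). *Thbs1*, which encodes a matrix protein that also binds both receptors, had -0.28 (adjusted p = 0.0825). *Adamts3* and *Thbs1* were picked with their values in view. Without WT_CSPG D, or without KO_CSPG B, 1 gene of the list was called.

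The cascade downstream of DAB1 was listed with 26 genes, all of which had a row, and 0 were called. Of these, 19 had a log2 fold change below 0 and 7 above, where 50.1% of all genes counted lay below 0, and the median was -0.03. An unadjusted limma p below 0.05 was found for 8 of the 26, beside 16.2% of all genes counted. Its most abundant genes were *Mapt*, which encodes tau, with a log2 fold change of -0.07 (SE 0.0224, adjusted p = 0.0723), and *Cfl1*, the actin-severing protein cofilin, with -0.03 (adjusted p = 0.677). *Fyn*, the SRC-family kinase that phosphorylates DAB1, had 4008, 3996, 4116 and 4003 normalized counts in WT_CSPG A to D and 3819, 3802, 3786 and 3897 in KO_CSPG A to D. Its groups did not overlap, but at a log2 fold change of -0.08 it was not called (adjusted p = 0.160). In all, 3 of the 26 genes had groups that did not overlap, *Fyn* and *Mapt* lower and the kinase gene *Cdk5* higher in KO_CSPG (0.11, adjusted p = 0.180), beside 9.24% of all genes counted. The other SRC-family kinases of the list, *Src* and *Yes1*, had 0.01 and 0.04 (adjusted p = 0.950 and 0.793). *Fyn*, *Cdk5*, *Src* and *Yes1* were picked with their values in view. Without WT_CSPG D, 1 gene of the cascade was called. The list's values ran from -0.11 to 0.22. Of the 20 genes of LIS1 and dynein, 20 had a row and 0 were called, with a median of -0.02, a range of -0.14 to 0.09 and 2 at an unadjusted limma p below 0.05. In this list too, 1 gene was called without WT_CSPG D. Its most abundant genes were *Tuba1a* (0.03, adjusted p = 0.663), an alpha-tubulin, and *Dcx* (-0.08, adjusted p = 0.351), the microtubule protein doublecortin. Limma with voom weights on the reads also called 0 genes in the protease and receptor list, the cascade and the dynein list, while without the robust prior 1 gene of the protease and receptor list was called lower.

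**Figure D4:**
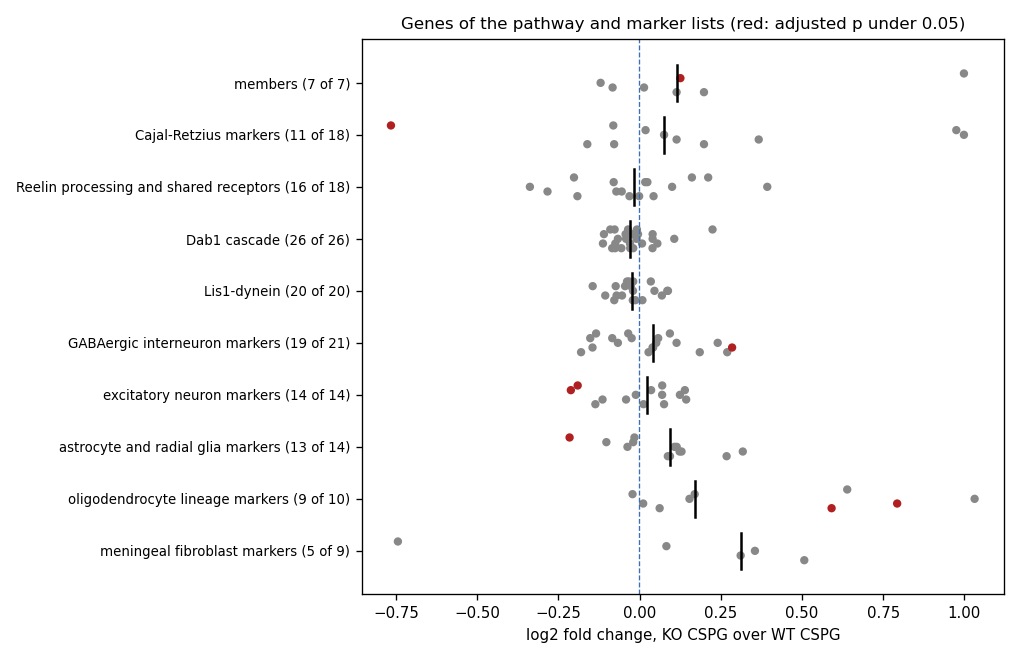
Log2 fold change of KO_CSPG over WT_CSPG (x axis) for each gene of the lists (rows, with the genes that had a row of those listed), with a black bar at the list's median, the dashed line at the median of all genes and red for an adjusted p below 0.05. The reelin cascade and LIS1 lists lie close to 0 with no called gene. Called genes sit among the members (*Dab1*) and the Cajal-Retzius, interneuron, excitatory, glial and oligodendrocyte markers.

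Markers of the cells that can make or receive reelin were counted beside these results, and most did not pass the test. Of 21 GABAergic interneuron markers 19 had a row and 1 rose, *Prox1* (log2 fold change 0.29, limma adjusted p = 0.00918), a factor of dentate granule cells and of interneurons from the caudal ganglionic eminence. *Gad1*, which with *Prox1* was the most abundant of the list, had 0.19 (adjusted p = 0.228), and *Vip* and *Pvalb* had no row. Of this list 3 were called without WT_CSPG D, and 2 without WT_CSPG A or without WT_CSPG C. The groups did not overlap for 2 of the 19, both higher in KO_CSPG. The list's summed normalized counts were 12156 to 14208 in WT_CSPG and 13549 to 14727 in KO_CSPG. Of 14 excitatory neuron markers, *Neurod2* (-0.21, adjusted p = 0.000799) and *Neurod6* (-0.19, adjusted p = 0.0118) fell, while 8 of the 14 lay above 0 with a median of 0.02, and the sums were 59359 to 62960.2 and 59323 to 61202. The groups did not overlap for 3 of the 14, all lower in KO_CSPG. *Camk2a*, a kinase of maturing excitatory synapses that was picked with its value in view, had 0.12 (adjusted p = 0.141). *Map2* (0.01, adjusted p = 0.896) and *Tubb3* (-0.04, adjusted p = 0.430) were the most abundant genes of this list. Like *Rbfox3*, *Snap25* and *Syt1* of the same list, they are genes of neurons in general. The list's median, signs and sums therefore do not describe excitatory neurons alone. Of 13 astrocyte and radial glia markers with a row (14 listed), *Nes* fell (-0.22, adjusted p = 0.00192), but 8 of the 13 lay above 0, with a median of 0.09. *Aqp4*, the astrocytic water channel, had 0.32 (adjusted p = 0.216), and *Gja1*, the gap junction protein connexin 43, had 0.27 (adjusted p = 0.112). Both were picked with their values in view. The groups did not overlap for 2 of the 13, *Aqp4* higher and *Nes* lower in KO_CSPG, beside 9.24% of all genes counted. Without limma's robust prior *Aqp4* (adjusted p = 0.0108) and *Gja1* (adjusted p = 0.0201) were called. Then, and with the replicate letters as a block, 3 genes of the list were called (2 higher). Without WT_CSPG B, or without WT_CSPG D, 1 gene was called higher and 1 lower. The sums of this list were 53035 to 61582 and 58388 to 63355. *Gfap* and *Vim* were the most abundant of that list, with 0.09 (adjusted p = 0.625) and -0.10 (adjusted p = 0.574).

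Oligodendrocyte lineage markers had the lowest adjusted p among these lists. Of the 9 with a row (10 listed), 2 rose, *Olig1* (0.59, limma adjusted p = 2.33e-07) and *Olig2* (0.79, adjusted p = 1.2e-06), and the sums did not overlap, at 1326 to 1715 in WT_CSPG and 1975 to 2178 in KO_CSPG. *Pdgfra*, the gene whose pattern resembled that of *Ndnf*, had 126, 259.9, 109 and 306 normalized counts in WT_CSPG A to D. It had 385, 439, 314 and 364 in KO_CSPG A to D. Its groups did not overlap, as for 3 of the 9 genes with *Olig1* and *Olig2*, beside 9.24% of all genes counted. The log2 fold change of *Pdgfra* was 1.03 and was not called (SE 0.377, limma adjusted p = 0.253). Without limma's robust prior *Pdgfra*, like *Ndnf*, was called (adjusted p = 0.0122). Of 9 meningeal fibroblast markers 5 had a row and 0 were called, none of them at an unadjusted limma p below 0.05, with *Col1a2* (0.31, adjusted p = 0.904) and *Pdgfrb* (0.08, adjusted p = 0.760) the most abundant, and the sums of 211 to 677 and 251 to 984 overlapped. The part of any of these cell types in the values of *Dab1*, *Reln* and *Ndnf* was not tested.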

How the data were processed

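Poly-A RNA of hippocampal cultures on CSPGs, 4 WT_CSPG and 4 KO_CSPG preparations, was sequenced by the authors. Per the labels, mm10 and DESeq2 were used; the aligner and counter are not given in the sources used here. The authors deposited a normalized signal, reads per gene divided by a library's size factor. Each library's values were whole multiples of 1 step, within 5.46e-11 of a read, which gave the reads. No gene had a mean below 40.7, so lower genes had been left out. The table's other columns hold the authors' own fold change, its standard error, test statistic, p-values and gene class, and were not used. 0 columns of other samples were left unused.

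Values were tested with limma 3.58.1 (R 4.3.3) on log2(value + 1) with a trended and robust prior and Benjamini-Hochberg adjustment over 12012 genes. As in the study's methods, 459 X-linked or Y-linked genes and pseudogenes were then not counted, leaving 11553. Fold changes understate changes of low genes. Count tests on the recovered reads, planned as alternatives, were not run. The scripts were tested on simulated data. Chi-square per degree of freedom between libraries of 1 group was 1.83 to 2.90 in 12 pairs, so none was a copy. Counting error was taken from the recovered reads and covers counting only. Levels between genes were divided by the deposited gene length.

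The members and lists were chosen with earlier results of these data known, and 2 genes of the marker lists are not reported here. Named genes were the 7 members, the called genes and the 2 most abundant of each list, the 5 genes most like *Reln* and each called member, and *Fibcd1*, with exceptions stated. Positions are those of the table, counted from 1, and were the same in GENCODE M21 on GRCm38 for 7 of 7 members. Alternatives were other pseudocounts (0.1 and 10), filters (a mean of 100, or 10 in every library), scalings and priors, voom weights, a replicate block, a Y-linked covariate and leaving out each library. Python 3.11.15, numpy 2.4.6, pandas 2.3.3 and matplotlib 3.10.9 were used.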

Additional observations from a re-analysis of the deposited data

Results flagged for a closer look

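For 45 named genes and the *Lrp8* to *Vldlr* ratio, the highest or lowest value in each group of 4 libraries was set against the rest by Dixon's 95% criterion. Other genes were not screened. Of 92 groups, 9 had a library that stood apart, where chance gives about 1 in 20, or 4.6. *Fibcd1* was at 182 normalized counts in WT_CSPG D against 54.3 to 70.4 in the other WT_CSPG libraries. *Zic2* was at 383 in the same library against 165 to 182. The *Lrp8* to *Vldlr* ratio was 2.55 in KO_CSPG D against 2.31 to 2.34. *Apoe* was at 7422 in KO_CSPG D against 8255 to 8377. *Tubb3* was at 16140.2 in WT_CSPG B against 15464 to 15559. *Fyn* was at 4116 in WT_CSPG C against 3996 to 4008, and *Yes1* at 418 in WT_CSPG B against 393 to 397. *Aqp4* was at 2719.9 in WT_CSPG A against 3404 to 3485. *Olig1* was at 369 in WT_CSPG A against 424 to 428, which is still below every KO_CSPG library.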

How the results depend on the processing

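Of 852 values for 45 named genes under the alternatives, 792 kept their direction and side of the threshold, 17 lost and 16 gained a call, and 27 changed sign. The genes called, 327 in all, were 73 without the trended prior and 1 with the Y-linked covariate (790 genes at an unadjusted limma p below 0.05), of whose variance 91.2% lies between the genotypes, and 177 (without KO_CSPG A) to 550 (without WT_CSPG D) with 1 library left out. Upper-quartile scaling gave 340 called, 171 higher and 169 lower against 122 and 205, and shifted the median gene by 0.012 on the log2 scale. The members called, 1 in all, were 0 without the trended prior, 2 without the robust prior (*Dab1* and *Ndnf*), 0 with the Y-linked covariate and 0 to 1 with 1 library left out. The 1 was *Vldlr*, not *Dab1*, without KO_CSPG B. Signs that changed with the Y-linked covariate were log2 fold changes of -0.18 for *Reln*, -0.0212 for *Dab1*, -0.18 for *Ndnf*, -0.0464 for *Cacna2d2*, 0.26 for *Cxcr4*, -0.24 for *Tbr1*, -0.28 for *Apoe*, -0.21 for *Map2*, -0.26 for *Gfap*, 0.0899 for *Vim*, -0.72 for *Pdgfra*, -2.66 for *Col1a2*, -0.50 for *Pdgfrb*, -0.14 for *Src*, -0.12 for *Yes1*, -0.21 for *Aqp4* and -0.15 for *Gja1*. With 1 library left out, *Map2* ran from -0.0145 to 0.0338, *Col1a2* from -0.23 to 0.86, *Zic2* from -0.28 to 0.12, *Adamts3* from -0.13 to 0.0054, *Src* from -0.0066 to 0.0301 and *Eomes* from -0.0223 to 0.0527. The cause of these changes was not tested.

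The labels do not say whether replicate letters pair the libraries. Deviations from the group means within letters A, B, C and D correlated by -0.07, 0.10, 0.27 and -0.01, which cannot decide it. With the letters as a replicate block, 404 genes and 1 member were called, against 327 genes and 1 member without it. *Trp73* then had a limma adjusted p of 0.00634, and 2 genes of the LIS1 and dynein list were called lower, among them *Dcx* at 0.0488. Voom weights and the count of all genes were chosen after seeing the data and gave 324 and 346 called. edgeR and DESeq2 on the recovered reads were not run. Genes without a row, 7 Cajal-Retzius markers among them, could not be assessed, and 4 libraries a group limit the smallest exact p to 0.0286.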
